A study of Mus musculus with 11 samples.

Results

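The 9 genes described here encode giant, M-band, Z-disc and thick-filament proteins of the skeletal muscle sarcomere: titin (Ttn), nebulin (Neb), the 3 myomesins (Myom1, Myom2 and Myom3), the 2 muscle alpha-actinins (Actn2 and Actn3) and the slow and fast skeletal forms of myosin-binding protein C (Mybpc1 and Mybpc2). They were taken by gene symbol from a table of 55385 genes, and each symbol occurred once. All 9 passed the filter on low counts, among 15416 genes tested. RNA was sequenced from whole mouse gastrocnemius, a calf muscle, and every animal had been fasted for 36 h, a treatment that makes muscle waste. Knockout mice carried floxed alleles of ZEB1 (ZEB1 flx/flx; HSACre, 3 libraries) or of ZEB2 (ZEB2 flx/flx; HSACre, 3 libraries). Controls carried the same floxed alleles without Cre (ZEB1 flx/flx, 2 libraries, and ZEB2 flx/flx, 3 libraries). HSA-Cre is a recombinase under the skeletal actin promoter, so it acts in myofibres and leaves the other cells of the muscle intact. None of the groups had Cre alone or was fed, so loss of a ZEB gene and presence of Cre cannot be told apart. Each library pooled RNA of 2 mice, and the p-values measure the spread between these pools.

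In the sarcomere, thin filaments are anchored in the Z-disc, where alpha-actinin crosslinks actin, and thick filaments are held in register at the M-band by myomesins. Titin spans from Z-disc to M-band as a molecular spring and scaffold, and nebulin runs along the thin filament and sets its length. Myosin-binding protein C sits on the thick filament and tunes cross-bridge cycling. Several members come in fibre-type forms: Mybpc1 and Myom3 are associated with slow and intermediate fibres, Actn3, Mybpc2 and Myom2 with fast fibres. The zinc-finger repressors ZEB1 and ZEB2 bind E-box sequences of the type CACCTG, which reads as CAGGTG on the other strand,.

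RefSeq promoter windows (GRCm38.p6) were at hand for 6 of the 9 genes (Ttn, Myom1, Myom3, Actn2, Mybpc1 and Mybpc2), each covering 250 bases before to 50 bases after the annotated start. Searched on both strands, CACCTG (read as CAGGTG on the opposite strand) occurred in 3 of the 6 windows, those of Ttn, Myom3 and Mybpc2, and in 20.2% of 32851 mouse windows of the same length. The 250 bases before the start are printed 5′ to 3′ for these 3 genes and, for comparison, for Mybpc1, which held no such motif; capitals mark the CACCTG-type E-box. The stretches are chr2:76982548-76982797 (minus strand) for Ttn, chr4:135759465-135759714 (plus) for Myom3, chr7:44524670-44524919 (minus) for Mybpc2 and chr10:88605153-88605402 (minus) for Mybpc1, and none of them overlaps a GENCODE gene.
Ttn: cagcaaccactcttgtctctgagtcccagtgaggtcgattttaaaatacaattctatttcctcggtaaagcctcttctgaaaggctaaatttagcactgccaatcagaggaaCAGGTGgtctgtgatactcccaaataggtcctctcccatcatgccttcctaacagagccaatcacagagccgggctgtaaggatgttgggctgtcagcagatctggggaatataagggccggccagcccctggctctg
Myom3: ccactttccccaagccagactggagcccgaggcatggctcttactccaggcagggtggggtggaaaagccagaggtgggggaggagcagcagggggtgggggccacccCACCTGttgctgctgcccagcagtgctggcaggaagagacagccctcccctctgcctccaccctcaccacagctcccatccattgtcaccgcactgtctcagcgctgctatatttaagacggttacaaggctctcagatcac
Mybpc2: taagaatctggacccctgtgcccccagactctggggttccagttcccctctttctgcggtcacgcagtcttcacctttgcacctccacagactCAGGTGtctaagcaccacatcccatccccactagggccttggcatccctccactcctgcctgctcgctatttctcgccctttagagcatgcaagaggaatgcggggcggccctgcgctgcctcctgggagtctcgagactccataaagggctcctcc
Mybpc1: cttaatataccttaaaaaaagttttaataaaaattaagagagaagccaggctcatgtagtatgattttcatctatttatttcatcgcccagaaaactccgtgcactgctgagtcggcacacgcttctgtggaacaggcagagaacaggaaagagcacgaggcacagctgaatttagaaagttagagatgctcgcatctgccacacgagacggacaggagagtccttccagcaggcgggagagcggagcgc
The E-box began 138 bases before the start in Ttn, 142 bases before it in Myom3 and 157 bases before it in Mybpc2, whose window held a second copy after the printed stretch. Another E-box, CAGCTG, which is favoured by myogenic factors, occurred in the Mybpc1 window and in 16.3% of all windows. The MEF2 motif was found in Myom3 and Ttn (3.19% of all windows) and the CArG box in Myom1 (1.63%). These matches describe the letters of the windows only; binding was not measured.

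Gene positions are on GRCm38, from GENCODE M21, where Ttn, Neb and Mybpc1 were matched by identifier without its version. Ttn (ENSMUSG00000051747.15) occupies chromosome 2 from 76703980 to 76982547 on the minus strand and has 116.8 kb of exon sequence when all its transcripts are merged. Neb (ENSMUSG00000026950.18), on the same chromosome, runs from 52136647 to 52378474, minus strand, with 26.6 kb of exons. The myomesin genes are on chromosome 17 from 71002633 to 71126856 (Myom1, ENSMUSG00000024049.15), chromosome 8 from 15057653 to 15133541 (Myom2, ENSMUSG00000031461.4) and chromosome 4 from 135759715 to 135815564 (Myom3, ENSMUSG00000037139.15), all on the plus strand. Actn2 (ENSMUSG00000052374.16) is on chromosome 13 from 12269426 to 12340760 and Actn3 (ENSMUSG00000006457.4) on chromosome 19 from 4861216 to 4877909, both on the minus strand. Mybpc1 (ENSMUSG00000020061.18) is on chromosome 10 from 88518279 to 88605152 and Mybpc2 (ENSMUSG00000038670.11) on chromosome 7 from 44501699 to 44524656, again both minus. Myom1 overlaps Myl12a, a myosin light chain gene with up to 13336 counts in a library, so its counts are less certain than those of the other members, whose overlapping gene models held at most 13 counts.

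By CPM, 8 of the 9 genes ranked between the 22nd and the 81st of the genes tested, and Myom3 ranked 1653rd. Together they took between 1.95% of all counts (ZEB2 knockout 2) and 2.95% (ZEB1 knockout 2). Levels are given as CPM, counts as a share of the TMM-scaled library total, and between genes they can be compared only per kb of exon. On that scale the order over the 11 libraries was Actn3 (mean 1846 CPM per kb, the 29th highest of all genes tested), Mybpc2 (961.9), Mybpc1 (287.6), Actn2 (287.2), Neb (143.7), Myom2 (137.2), Myom1 (121.7), Ttn (53.8) and Myom3 (11.8). Mybpc1 and Actn2 are neighbours that differed by less than their spread over libraries, and so are Neb, Myom2 and Myom1. The fast forms Actn3 and Mybpc2 stood above the slow or general forms of the same proteins, and Ttn, the 22nd gene by CPM, ranked only 599th per kb. Dividing by the longest transcript instead of the merged exons placed Myom2 (239.4) and Myom1 (225.3) above Neb (169.8). Between libraries the least even member was Myom3, with a coefficient of variation of 31.7% over the 11 libraries, followed by Myom2 (26.8%), Actn2 (24.6%) and Mybpc1 (22.4%), while Neb varied by 13.2%.

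Total counts ran from 27.29 M to 46.26 M per library. Zeb1 was at 28.4 to 30.4 CPM in ZEB1 knockouts and 41.2 to 51.1 in their controls. Zeb2 was at 14.4 to 18.3 CPM in ZEB2 knockouts and 23.1 to 25.8 in theirs, so each targeted gene was lower in its own knockouts and still counted. The other ZEB gene differed too in the ZEB2 line, where Zeb1 was at 60.2 to 76 CPM in knockouts and 43.7 to 52.1 in controls. In the ZEB1 line Zeb2 overlapped, at 19.7 to 21.8 CPM in knockouts and 18.7 to 20.8 in controls. Libraries of a group differed in sex make-up and in the fasting response: summed Y-linked CPM was 0 in 4 of the 11 libraries, and Trim63, the muscle ubiquitin ligase MuRF1, ran from 769.9 CPM (ZEB1 control 2) to 7378 CPM (ZEB2 knockout 3). In the ZEB2 line Y-linked CPM was 117.7, 249.9 and 0 in controls and 215.7, 256.4 and 378.2 in knockouts, and Trim63 was 2139, 3197 and 956.2 in controls and 5157, 4973 and 7378 in knockouts. The tissue label held against markers: 8 fast myofibre genes summed to 73036 to 106937 CPM in every library. Of 6 heart markers, Nppa, Tnni3 and Mybpc3 did not reach the count filter. The heart list summed to 118.3 to 928.4 CPM, and its other 3 genes were on the lower side in both knockouts. Among them Myh6 differed between the controls, at a mean of 40.7 CPM in ZEB1 controls and 4.14 CPM in ZEB2 controls. That was a log2 difference of -3.30 (SE 0.44, adjusted p = 0.0556 by edgeR and 2.16e-10 by DESeq2).

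**Figure D1:**
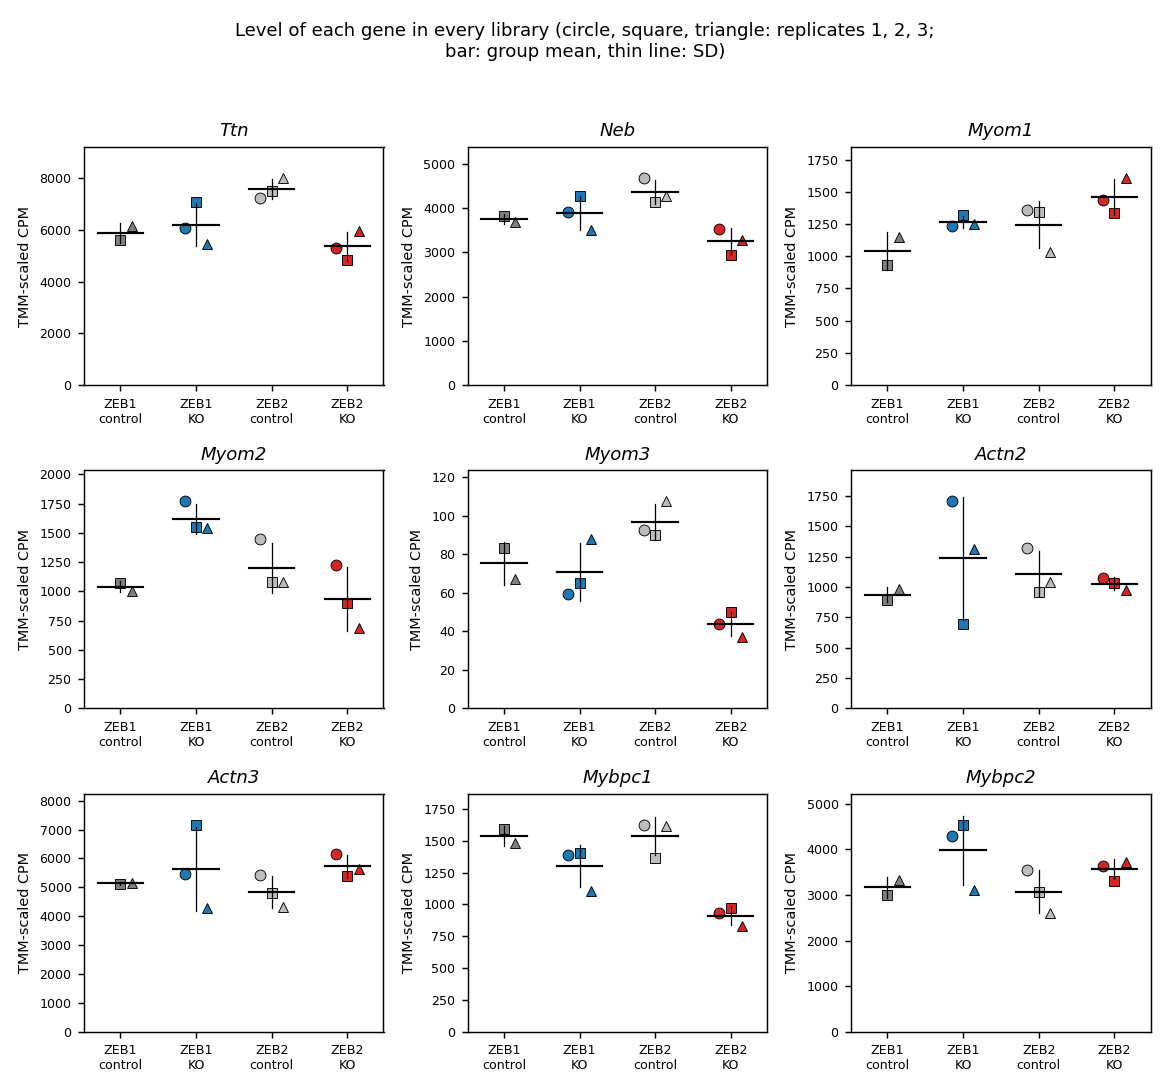
TMM-scaled CPM of the 9 genes (vertical axes, linear, starting at 0) in each of the 11 libraries, by group; circles, squares and triangles are replicates 1, 2 and 3, the bar is the group mean and the thin line the SD. In ZEB2 knockouts all 3 libraries of Ttn, Neb, Myom3 and Mybpc1 lie below the 3 ZEB2 controls, whereas Actn2 in ZEB1 knockouts spreads from 694.7 to 1703 CPM.

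The comparison of ZEB2 knockouts with ZEB2 controls asked what loss of ZEB2 in fasted myofibres does to these transcripts. Of the 9 genes, 4 were lower in every knockout library than in every control library: Ttn, Neb, Myom3 and Mybpc1. For the remaining members the knockout and control libraries overlapped. Groups lay apart in the lower direction for 22.1% of all genes tested, against 4 of 9 here. With edgeR's quasi-likelihood test none of the 9 passed an adjusted p of 0.05, and neither did any other gene (0% of 15416); the smallest adjusted p of the comparison, 0.0775, was shared by 555 genes, Ttn, Myom3 and Mybpc1 among them. At an unadjusted p below 0.05 the edgeR count was 4 of 9, against 33.2% of all genes. DESeq2 called the same 4 genes lower and none higher, where it called 16.2% of all genes in either direction and 7.70% lower, and limma-voom called 0 genes of the 9 and 0% of all. The median log2 fold change was -0.36 over the 9 genes and -0.047 over all genes.

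Titin, the spring of the sarcomere, measured 7219, 7516 and 7998 CPM in the ZEB2 control libraries, against 5295, 4837 and 5935 CPM in the ZEB2 knockout libraries. The groups did not overlap, and the mean went from 7577 ± 393.4 to 5356 ± 551.4 CPM (SD, n = 3 each). That is a log2 fold change of -0.50 (SE 0.13; adjusted p = 0.0775 by edgeR, 0.0215 by DESeq2). Nebulin, the thin-filament ruler, measured 4677, 4140 and 4275 CPM in the control libraries, against 3536, 2931 and 3276 CPM in the knockout libraries, again without overlap. Its log2 fold change was -0.43 (SE 0.12; adjusted p = 0.0793 by edgeR, 0.0265 by DESeq2). As folds, the knockouts held 0.707 of the control level for Ttn and 0.744 for Neb. The ZEB2 knockouts were not below every other library of the study for either: the highest knockout value of Ttn, 5935 CPM, lay above the lowest value elsewhere, 5457 CPM in ZEB1 knockout 3. Genes with over 10 kb of exons were also taken as a class (1348 genes, members left out). Their median log2 CPM deviation from the mean of the 11 libraries was set against that of all tested genes. The difference was -0.066, -0.12 and 0.076 in the ZEB2 knockout libraries and 0.045, -0.005 and 0.0039 in the ZEB2 control libraries. Its part in the Ttn and Neb values was not tested.

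The 3 myomesins, which crosslink thick filaments in the M-band, had their largest difference in Myom3. Myom3, the myomesin of slow and intermediate fibres, measured 92.7, 90.2 and 107.4 CPM in the control libraries, against 43.8, 50 and 37.3 CPM in the knockout libraries. Its log2 fold change of -1.15 (SE 0.18; fold 0.452) was the largest of the 9 genes, with the 4th smallest unadjusted p of all genes tested, 4.66e-05. The adjusted p was 0.0775 by edgeR and 2.3e-05 by DESeq2. Every ZEB2 knockout library held less Myom3 than any of the other 8 libraries, the highest knockout standing at 50 CPM and the lowest of the others at 59.5. The lowest count of Myom3 in any library was 1324.

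Smaller differences were seen in the other myomesins. Myom1, the myomesin found in all striated muscle, measured 1360, 1343 and 1033 CPM in the control libraries, against 1439, 1333 and 1606 CPM in the knockout libraries. Its groups overlapped, and the log2 fold change was 0.23 (SE 0.14; adjusted p = 0.271 by edgeR). Myom2, which is associated with fast fibres, measured 1451, 1083 and 1077 CPM in the control libraries, against 1224, 904.6 and 683.9 CPM in the knockout libraries. Here too the groups overlapped, with a log2 fold change of -0.36 (SE 0.20; adjusted p = 0.219 by edgeR).

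The alpha-actinins of the Z-disc did not pass by any tool run. Actn2, present in all fibres, measured 1321, 960.5 and 1044 CPM in the control libraries, against 1077, 1034 and 971.1 CPM in the knockout libraries, for a log2 fold change of -0.11 (SE 0.26; adjusted p = 0.783 by edgeR). Actn3, the form restricted to fast fibres, measured 5421, 4798 and 4315 CPM in the control libraries, against 6164, 5391 and 5635 CPM in the knockout libraries, for a log2 fold change of 0.24 (SE 0.17; adjusted p = 0.325). The direction of Actn2 hung on 1 library, because without ZEB2 control 1 its log2 fold change was 0.036.

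Of the myosin-binding proteins, the slow form Mybpc1 measured 1625, 1362 and 1617 CPM in the control libraries, against 933.1, 974 and 830.6 CPM in the knockout libraries. The groups were well separated, and the means were 1534 ± 149.6 and 912.6 ± 73.9 CPM (SD, n = 3 each). The log2 fold change was -0.75 (SE 0.13; fold 0.595; unadjusted p = 0.00016), with an adjusted p of 0.0775 by edgeR and 0.000362 by DESeq2. Like Myom3, Mybpc1 was lower in all 3 ZEB2 knockouts than in the other 8 libraries, whose lowest value was 1109 CPM. Such a position was held by 2 of the 9 genes and by 908 of 15416 genes (5.89%). The fast form Mybpc2 measured 3548, 3073 and 2601 CPM in the control libraries, against 3643, 3318 and 3736 CPM in the knockout libraries, for a log2 fold change of 0.21 (SE 0.16; adjusted p = 0.358).

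The edgeR calls depended on the set of genes and libraries fitted. With only the ZEB2 groups in the fit, Ttn (adjusted p = 0.042), Myom3 (0.0388) and Mybpc1 (0.0388) passed, along with 14.2% of the genes tested there, and Neb (0.0582) did not. With the summed Y-linked CPM of each library as a covariate, the log2 fold changes were -0.47 for Ttn, -0.34 for Neb, -1.13 for Myom3 and -0.56 for Mybpc1, with adjusted p values of 0.418 to 0.433.

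**Figure D2:**
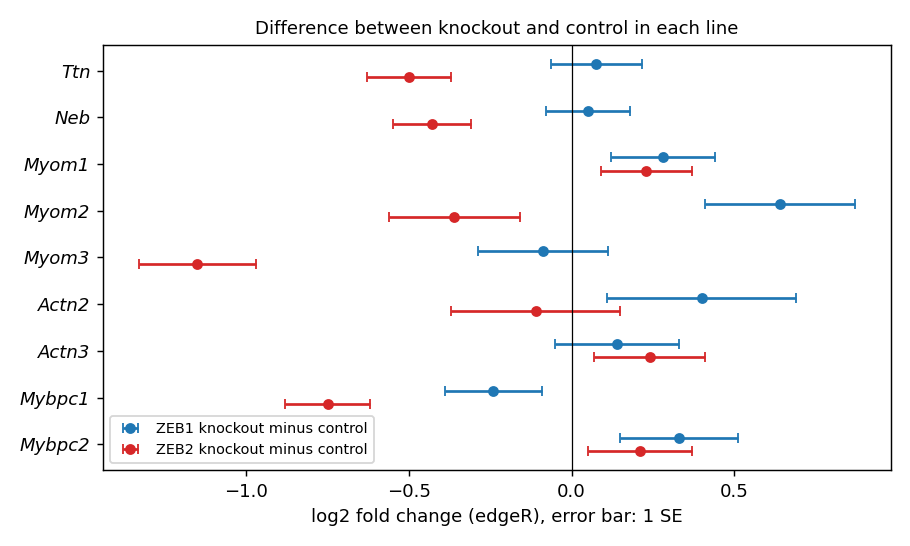
Log2 fold change of each gene between knockout and control (horizontal axis, edgeR; error bars are 1 SE), with the ZEB1 line in blue and the ZEB2 line in red. Myom3 (-1.15), Mybpc1 (-0.75), Ttn (-0.50) and Neb (-0.43) stand on the lower side in the ZEB2 line, and Myom2 (0.64) stands farthest to the higher side in the ZEB1 line.

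In ZEB1 knockouts against ZEB1 controls, 7 of the 9 genes had positive and 2 negative log2 fold changes, whose median was 0.14, against 0.007 over all genes. None passed with edgeR (0% of all genes called), DESeq2 (0.136% of all genes) or limma-voom (0.00649%). At an unadjusted p below 0.05 the edgeR count was 1 of 9, against 3.24% of all genes, and every adjusted p of the 9 was 1. Groups lay apart for 3 of the 9 genes, 2 higher and 1 lower, where 7.19% and 6.69% of all genes did so.

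The gene with the small unadjusted p was Myom2. It measured 1072 and 1008 CPM in the ZEB1 control libraries, against 1769, 1548 and 1543 CPM in the ZEB1 knockout libraries, for a log2 fold change of 0.64 (SE 0.23; unadjusted p = 0.0163, adjusted p = 1 by edgeR). All 3 knockout libraries stood above both controls, and also above every ZEB2 library, of which the highest reached 1451 CPM. Myom1 lay apart as well, with 935.6 and 1147 CPM in the control libraries, against 1232, 1320 and 1250 CPM in the knockout libraries (log2 fold change 0.28, SE 0.16). Myom3 overlapped, with 83.3 and 67.4 CPM in the control libraries, against 59.5, 65 and 87.9 CPM in the knockout libraries (log2 fold change -0.089, SE 0.20).

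Mybpc1 was the member that lay apart on the lower side, as it did in the ZEB2 line; this held in both lines for 1 of the 9 genes and for 2.16% of all genes. Its level was 1596 and 1485 CPM in ZEB1 controls and 1391, 1400 and 1109 CPM in ZEB1 knockouts, a log2 fold change of -0.24 (SE 0.15). Mybpc2 measured 3012 and 3336 CPM in the control libraries, against 4290, 4541 and 3110 CPM in the knockout libraries, with overlap (log2 fold change 0.33, SE 0.18). The giants were close to level: Ttn stood at 5618 and 6150 CPM against 6068, 7077 and 5457 CPM (log2 fold change 0.076, SE 0.14). Neb stood at 3832 and 3676 CPM against 3911, 4262 and 3494 CPM (log2 fold change 0.051, SE 0.13).

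The alpha-actinins spread widely among ZEB1 knockouts. Actn2 measured 892.6 and 980.2 CPM in the control libraries, against 1703, 694.7 and 1309 CPM in the knockout libraries, so that replicate 2 lay below both controls and the others above them. Actn3 measured 5101 and 5165 CPM in the control libraries, against 5465, 7163 and 4281 CPM in the knockout libraries, and here replicate 2 was the highest. The log2 fold changes were 0.40 (SE 0.29) for Actn2 and 0.14 (SE 0.19) for Actn3. Without ZEB1 knockout 2 they were 0.68 and -0.076, so that 1 library set the direction for Actn3. That library also had the lowest Trim63 of its group, 925.1 CPM against 4710 and 2854, and its part in the alpha-actinin values was not tested.

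The difference between the knockout effects of both lines was tested as a contrast of its own, the ZEB1 effect minus the ZEB2 effect. It was positive for 8 of the 9 genes, with a median of 0.51 on the log2 scale against 0.060 over all genes. No gene of the 9 passed with edgeR (0% of all genes), DESeq2 (0.104%) or limma-voom (0%). At an unadjusted p below 0.05 there were 5 of 9, against 9.26% of all genes, and for each of these 5 the adjusted p was 0.516. By edgeR they were Myom3 (1.06, SE 0.27), Myom2 (1.00, SE 0.30), Ttn (0.58, SE 0.19), Neb (0.48, SE 0.18) and Mybpc1 (0.51, SE 0.20). Actn3 (-0.11, SE 0.25), Myom1 (0.055, SE 0.21) and Mybpc2 (0.11, SE 0.24) differed between lines by less than their SE.

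The control groups were not level with each other. Ttn was 5618 and 6150 CPM in ZEB1 controls and 7219 to 7998 CPM in ZEB2 controls, a log2 difference of 0.36 (SE 0.14; unadjusted p = 0.0254, adjusted p = 1 by edgeR). Neb, Myom2 and Myom3 also lay higher in every ZEB2 control than in both ZEB1 controls, with log2 differences of 0.22, 0.21 and 0.36 (SE 0.13, 0.22 and 0.20). That made 4 of 9 apart in the higher direction, against 8.96% of all genes. None of the 9 was called by edgeR (0.0195% of all genes), DESeq2 (0.104%) or limma-voom (0.0130%), and 1 of 9 had an unadjusted p below 0.05, against 3.32%. Group means of Ttn, from high to low, were 7577 ± 393.4 CPM in ZEB2 controls (SD, n = 3), 6201 ± 818.1 in ZEB1 knockouts (n = 3), 5884 ± 376.7 in ZEB1 controls (n = 2) and 5356 ± 551.4 in ZEB2 knockouts (n = 3). ZEB1 knockouts and ZEB1 controls differed by less than the larger of their SDs, and so did ZEB1 controls and ZEB2 knockouts. For Mybpc1, by contrast, both control means were close, 1540 ± 78.5 CPM in ZEB1 controls and 1534 ± 149.6 CPM in ZEB2 controls, with ZEB1 knockouts at 1300 ± 165.3 and ZEB2 knockouts at 912.6 ± 73.9. Myom3 ran from 96.8 ± 9.3 CPM in ZEB2 controls over 75.3 ± 11.3 in ZEB1 controls and 70.8 ± 15 in ZEB1 knockouts, a pair within its spread, to 43.7 ± 6.36 in ZEB2 knockouts.

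Averaged over both lines, the knockout effect was -0.62 for Myom3 (SE 0.13; unadjusted p = 0.000639) and -0.50 for Mybpc1 (SE 0.10; unadjusted p = 0.000405), each with an adjusted p of 0.181 by edgeR. By DESeq2 the adjusted p was 0.0093 for Myom3 and 0.00497 for Mybpc1, and these were the 2 members it called, against 2.67% of all genes. EdgeR called 0% of all genes and limma-voom 0%, and 5 of the 9 had an unadjusted edgeR p below 0.05, against 21.4%. The other 3 of those 5 were Myom1 (0.26, SE 0.11), Ttn (-0.21, SE 0.094) and Mybpc2 (0.27, SE 0.12). For Myom3 and Ttn the average joined unlike lines. Myom3 was at -0.089 (SE 0.20) in the ZEB1 line and -1.15 (SE 0.18) in the ZEB2 line. Ttn was at 0.076 (SE 0.14) and -0.50 (SE 0.13) in the same order. Mybpc1, Myom1 and Mybpc2 had the same direction in both lines.

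Ratios of 2 members within a library need no scaling between libraries, and 5 such ratios were compared by exact permutation tests (two-sided, with Benjamini-Hochberg adjustment over the 5 ratios). Within a line the smallest p these tests can give is 0.1, and over both lines, with labels permuted within each line, it is 0.005. The ratio of fast to slow myosin-binding protein C, Mybpc2 to Mybpc1, was 1.89 and 2.25 in ZEB1 controls and 3.08, 3.24 and 2.8 in ZEB1 knockouts. In the ZEB2 line it was 2.18, 2.26 and 1.61 in controls and 3.9, 3.41 and 4.5 in knockouts. Every knockout library of either line had a higher ratio than every control library of either line. The mean difference was 0.56 on the log2 scale in the ZEB1 line (1.48-fold; exact p = 0.1) and 0.97 in the ZEB2 line (1.96-fold; exact p = 0.1). Over both lines it was 0.77 (1.7-fold; exact permutation p = 0.005, adjusted 0.025), the smallest p that the design can give. The genes that form the ratios were chosen with earlier results of these data known, so the p-values of the ratios are descriptive.

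The ratio of Myom3 to Myom1 was 0.089 and 0.0587 in ZEB1 controls and 0.0483, 0.0492 and 0.0703 in ZEB1 knockouts, which overlapped. In the ZEB2 line it was 0.0681, 0.0672 and 0.104 in controls and 0.0304, 0.0375 and 0.0232 in knockouts, which did not. The mean difference was -0.39 in the ZEB1 line (exact p = 0.3), -1.39 in the ZEB2 line (0.382-fold; exact p = 0.1) and -0.89 over both lines (0.539-fold; exact permutation p = 0.015, adjusted 0.0375). Both of these adjusted values were below 0.05, for ratios of genes that were not chosen blind to these data. With each of the 11 libraries left out in turn, 2 of 11 adjusted values were below 0.05 for either ratio. Fewer arrangements remain then, and the unadjusted p of Mybpc2 to Mybpc1 was 0.01 to 0.0167. After adjustment over all the ratios, such a p falls below 0.05 only if another ratio has a similarly small p. For Mybpc2 to Mybpc1 this count therefore cannot show whether the result hangs on a single library. The adjusted p ran from 0.0312 to 0.0833 for Mybpc2 to Mybpc1 and from 0.0312 to 0.125 for Myom3 to Myom1. For Mybpc2 to Mybpc1 the unadjusted p stayed at the smallest its fewer arrangements allow, whereas for Myom3 to Myom1 it rose above that, to an exact p of 0.05 without ZEB1 control 2. The log2 differences over both lines ran from 0.69 to 0.83 and from -1.04 to -0.74.

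The other ratios did not pass. Ttn to Neb was nearly constant, between 1.47 and 1.87 in the 11 libraries, and its difference over both lines was -0.027 (exact permutation p = 0.705, adjusted 0.881). Myom2 to Myom1 went in opposite directions, 0.35 in the ZEB1 line (exact p = 0.1) and -0.62 in the ZEB2 line (exact p = 0.2). Actn3 to Actn2 was 5.71 and 5.27 in ZEB1 controls and 3.21, 10.3 and 3.27 in ZEB1 knockouts, with replicate 2 apart from the rest. In the ZEB2 line the same ratio was 4.1, 5 and 4.13 in controls and 5.72, 5.21 and 5.8 in knockouts, a log2 difference of 0.34 (exact p = 0.1) with groups that did not overlap.

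**Figure D3:**
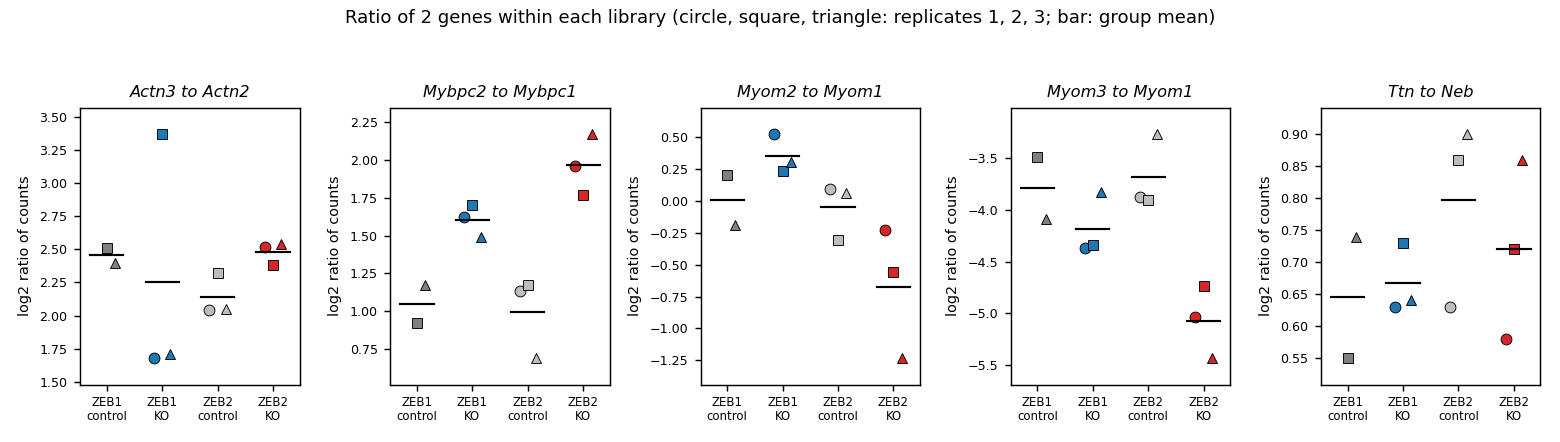
Log2 ratio of the counts of 2 genes within each library (vertical axes, each with its own range, not starting at 0), by group; circles, squares and triangles are replicates 1, 2 and 3 and the bar is the group mean. For Mybpc2 to Mybpc1 the 6 knockout libraries of both lines stand above the 5 control libraries, whereas for Ttn to Neb the groups overlap in both lines.

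Markers of slow and oxidative fibres were on the lower side together with Myom3 and Mybpc1. The 8 markers (Myh7, Myh2, Tnnt1, Tnni1, Tnnc1, Myl2, Myl3 and Atp2a2) summed to 4127, 4101 and 5253 CPM in ZEB2 controls and to 1871, 2632 and 1514 CPM in ZEB2 knockouts. In the ZEB1 line they summed to 5391 and 3406 CPM in controls and to 2374, 3667 and 3101 CPM in knockouts. All 8 of 8 were on the lower side in each line, with a median log2 fold change of -0.64 in the ZEB2 line and -0.44 in the ZEB1 line. Myh2, the myosin heavy chain of fast oxidative fibres, had a log2 fold change of -1.54 in the ZEB2 line (SE 0.24; adjusted p = 0.0775 by edgeR, 9.99e-06 by DESeq2), and Myh7, that of slow fibres, one of -1.05 (SE 0.33; adjusted p = 0.0881 by edgeR, 0.0244 by DESeq2). None of the 8 passed with edgeR in either line; DESeq2 called 2 of 8 lower in the ZEB2 line, where it called 7.70% of all genes lower, and 0 of 8 in the ZEB1 line. ZEB2 knockouts 3 and 1 had the lowest marker sums and the lowest Myom3 and Mybpc1. ZEB1 knockout 1 had a marker sum of 2374 CPM, with 59.5 CPM of Myom3 and 1391 CPM of Mybpc1. ZEB2 knockout 2 had a marker sum of 2632 CPM, with 50 CPM of Myom3 and 974 CPM of Mybpc1. Myh2 took much of the marker sum in ZEB2 controls, where it averaged 2812 CPM, against 964 CPM in ZEB2 knockouts. The part of the fibre markers in the differences of Myom3 and Mybpc1 was not tested. In whole muscle, fewer fibres of a type and less RNA per fibre cannot be told apart.

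**Figure D4:**
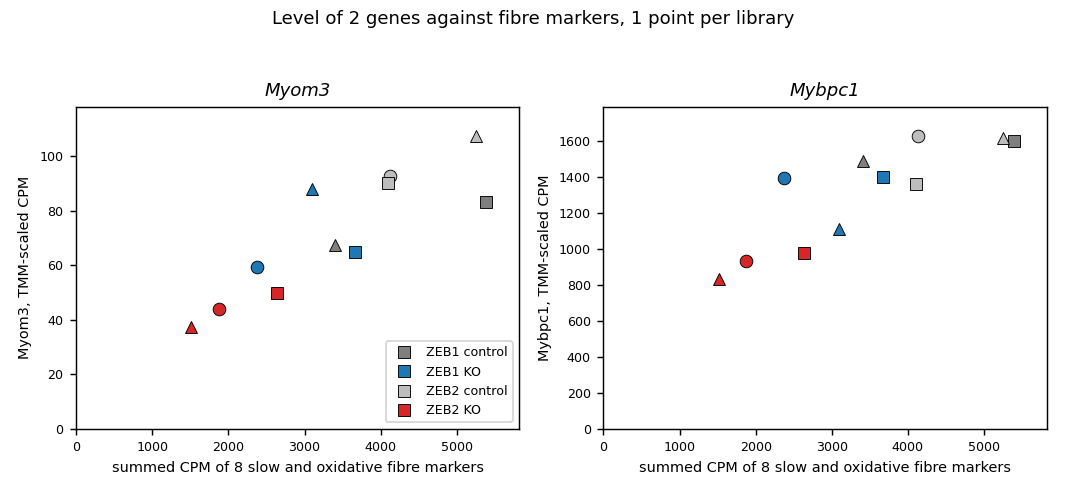
TMM-scaled CPM of Myom3 (left) and Mybpc1 (right) on the vertical axes against the summed CPM of 8 slow and oxidative fibre markers on the horizontal axes, 1 point per library; colours give the group, and circles, squares and triangles replicates 1, 2 and 3. The 3 ZEB2 knockout libraries, with marker sums of 1514 to 2632 CPM, lie lowest for both genes. ZEB1 knockout 1, with a sum of 2374 CPM, lies at 59.5 CPM of Myom3 and 1391 CPM of Mybpc1. The part of the fibre markers in these differences was not tested.

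Most markers of other cell types were also on the lower side in knockouts. In the ZEB2 line 6 of 6 fibroblast and matrix genes (summed 928.6 to 1276 CPM in controls and 584.6 to 774 in knockouts), 5 of 5 tendon genes (85.9 to 164.7 and 55.1 to 68.3), 4 of 4 endothelial genes (294.7 to 374.3 and 251.6 to 282.6) and 4 of 5 macrophage genes (32.6 to 42.2 and 27.3 to 31.1) were on the lower side. Fast myofibre genes summed to 82155 to 92225 CPM in controls and to 99671 to 106937 CPM in knockouts, with 5 of 8 on the higher side. The 3 on the lower side were Myh1 (log2 fold change -0.85), Mylpf (-0.39) and Tnnc2 (-0.028). For Myh1 and Mylpf every knockout library lay below every control library. The ZEB1 line had 6 of 6, 5 of 5, 4 of 4 and 4 of 5 of the same 4 non-muscle lists on the lower side. Fibroblast sums were 960.6 to 1119 CPM in controls and 600.5 to 857 in knockouts. Endothelial sums (285 to 350.7 and 262 to 313.5) and macrophage sums (46.4 to 54.3 and 32.4 to 52.1) overlapped there. Over all 15416 genes tested, 7184 were on the higher side in the ZEB2 line and 7899 in the ZEB1 line. In the ZEB2 line DESeq2 called 3 of 6 fibroblast and matrix, 3 of 5 tendon, 2 of 4 endothelial and 0 of 5 macrophage genes lower (7.70% of all genes). It called 1 of 8 fast myofibre genes higher there, against 1303 of all 15416 genes. In the ZEB1 line DESeq2 called none of these marker genes. EdgeR called none of them in either line, as it called 0% of all genes, and the part of cell make-up in the differences of the 9 genes was not tested. The mitochondrial share of counts was 16% to 18% in ZEB2 controls and 12.1% to 14.9% in ZEB2 knockouts.

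Genes that work beside the 9 members were followed in 4 lists. Among M-band and A-band partners, 7 of 13 were higher and 6 lower in ZEB2 knockouts, with none called by edgeR and 3 higher and 2 lower called by DESeq2 (16.2% of all genes); the median log2 fold change was 0.01. The largest differences were those of Trim63 (1.48, SE 0.71; adjusted p = 0.175 by edgeR), of Sqstm1, an autophagy receptor tied to the titin kinase region (1.22, SE 0.35; adjusted p = 0.0824 by edgeR, 0.0117 by DESeq2), and of Fhl2, a LIM protein that binds titin (-1.31, SE 0.35; 0.0787 and 0.0127). Sqstm1 went from 857.9 ± 266.8 CPM to 2001 ± 374.2 CPM (SD, n = 3 each).

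Among Z-disc partners, 12 of 26 were higher in ZEB2 knockouts and 14 lower (median log2 fold change -0.094), none called by edgeR, and 0 higher and 8 lower called by DESeq2, which called 7.70% of all genes lower. Fhl1, a LIM protein of the sarcomere that is mutated in myopathies, averaged 1739 ± 226 CPM over controls, against 832.3 ± 170 CPM over knockouts (log2 fold change -1.06, SE 0.25; adjusted p = 0.0775 by edgeR, 0.00633 by DESeq2). Synpo2l (-1.37, SE 0.39; 0.0817 and 0.00994) and Synpo2 (-1.13, SE 0.39; 0.0975 and 0.0304), a pair of actin-binding Z-disc proteins, were the others with the largest differences.

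In the list of thin-filament length and I-band genes, 6 of 12 were higher and 6 lower, with none called by edgeR and 2 of 12 called lower by DESeq2, against 7.70% of all genes. Lmod3, a leiomodin that nucleates and lengthens thin filaments, averaged 97.2 ± 28.6 CPM over ZEB2 controls, against 37.8 ± 16.7 CPM over knockouts (log2 fold change -1.36, SE 0.39; adjusted p = 0.0824 by edgeR, 0.0115 by DESeq2). Kbtbd13, a kelch-family gene mutated in nemaline myopathy, had a log2 fold change of -1.82 (SE 0.57; 0.0893 and 0.013) at a low level of 13.9 ± 6.45 and 3.89 ± 3.1 CPM, with groups that overlapped. Ankrd23, an ankyrin-repeat protein that binds titin in the I-band, had one of -0.72 (SE 0.41; 0.242 and 0.195).

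Of 6 close relatives of the members, 4 were tested (Mybpc3 and Mybphl did not reach the count filter), and 1 was higher and 3 lower in ZEB2 knockouts, with none called by edgeR or DESeq2. Mybph, which resembles the C-terminal part of myosin-binding protein C, averaged 82.3 ± 25.9 CPM over controls, against 37.3 ± 20.8 CPM over knockouts (log2 fold change -1.14, SE 0.57; adjusted p = 0.189 by edgeR). Actn1, the non-muscle alpha-actinin, had a log2 fold change of -0.34 (SE 0.17; 0.178), and Nebl, the heart relative of nebulin, one of 0.27 (SE 0.40; 0.652).

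In the ZEB1 line none of the genes in these 4 lists was called by edgeR or DESeq2. M-band and A-band partners had 10 of 13 on the higher side (median 0.11), Z-disc partners 13 of 26 (0.033), thin-filament and I-band genes 8 of 12 (0.19) and close relatives 2 of 4 (0.0076), beside a median of 0.007 over all genes. Klhl40, a kelch protein that stabilises nebulin and Lmod3, was at 62.3 ± 7.26 CPM in controls (SD, n = 2) and 88.7 ± 11.1 CPM in knockouts (n = 3), a log2 fold change of 0.51 (SE 0.15; unadjusted p = 0.00603, adjusted p = 1 by edgeR). Mypn, myopalladin, which links nebulin to alpha-actinin, had a log2 fold change of 0.55 (SE 0.23), and Ankrd1, a stress-induced titin-binding protein, one of 0.77 (SE 0.42), both with an adjusted p of 1.

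Profiles over the 11 libraries were compared as the root mean square difference between log2 CPM values centred on each gene's mean, among 7108 named genes with a mean of at least 10 CPM. Ttn and Neb were close to each other, at 0.11, and so were Actn3 and Mybpc2, at 0.12; Neb ranked 2nd in likeness to Ttn, after Clasp1, and Actn3 ranked 2nd for Mybpc2, after Mcoln1. The nearest genes to Myom3 were Fhl1 (0.16) and Lama4 (0.17), where the median over all genes compared was 0.56, and those to Mybpc1 were F13a1 (0.073) and Sparcl1 (0.11). Neb itself was nearest to Igf2r (0.087) and Gprc5b (0.089), Myom1 to Gtdc1 (0.083) and Ltn1 (0.09), and Myom2 to Nctc1 (0.16) and Cmtm4 (0.17). Actn2 was nearest to Mavs (0.11) and Alpk3 (0.14), and Actn3 to Rtn2 and Mnat1 (0.12 each). Among pairs of members, the least alike were Myom3 and Mybpc2 and Myom3 and Myom1, at 0.62 each. Such a distance grows with the spread of either gene, and Myom3 had the largest SD of the members (0.49 on the log2 scale). Its 0.62 thus stands near its median of 0.56 over all genes compared. The same median was 0.34 for Ttn and 0.32 for Neb. These distances describe the 11 libraries, which share groups, and carry no test.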

How the data were processed

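RNA was measured in 11 libraries of gastrocnemius muscle, grouped by the genotype in the labels, with replicate numbers from the sample titles. Libraries were made with a stranded mRNA kit, per the labels' protocols. The deposited values are estimated counts per gene in whole numbers, with no normalization. The submitters' processing notes list STAR, RSEM, DESeq2 and GRCm38, without versions. The sources used here give neither strand setting nor annotation release, so counts of overlapping genes and near-identical copies are uncertain.

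Of 55385 genes, 55144 matched GENCODE M21 by identifier without version, which gave positions and exon lengths. Genes were kept by filterByExpr (minimum count 10, minimum total 15), which left 15416 with 99.96% of counts. Library sizes were scaled by TMM in edgeR 4.0.16 (R 4.3.3). A robust quasi-likelihood fit of 4 group means over all libraries gave 5 contrasts; p-values were adjusted by Benjamini-Hochberg over all tested genes (threshold 0.05), and SE is the size of a log2 fold change over the root of its F statistic. Within-library ratios used exact permutation tests. Alternatives were DESeq2 1.42.0, limma-voom (limma 3.58.1), other scalings and filters, a non-robust fit, a replicate block, Y-linked CPM as covariate, only the 2 groups compared, and each library left out. The fit was tested on simulated counts. Depth was 27.29 M to 46.26 M counts, and the lowest member count was 1324.

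The 9 genes and the gene lists were chosen with earlier results of these data known. Besides the members, Zeb1, Zeb2, Trim63 and Fbxo32, the named genes were, from each list, those called or otherwise up to 3 with the largest absolute log2 fold change at a mean of at least 1 CPM, and the 2 genes most like each member in profile; some of these are given only in the counts. Sequences came from RefSeq (GRCm38.p6).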

Additional observations from a re-analysis of the deposited data

How the results depend on the processing

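Of the 4 genes apart in the ZEB2 line, each kept its direction under every alternative run, with log2 fold changes of -0.64 to -0.43 for Ttn, -0.56 to -0.34 for Neb, -1.27 to -1.03 for Myom3 and -0.88 to -0.56 for Mybpc1. They passed the threshold with DESeq2. Myom3 (adjusted p = 0.00698) and Mybpc1 (0.0346) also did with edgeR on unfiltered counts, where 348 of 26986 genes were called. Of 21 alternatives, 3 passed for Myom3, 3 for Mybpc1, 2 for Ttn and 1 for Neb. Upper quartile scaling moved the median of all genes by -0.130 in the ZEB2 comparison. Counts of genes called at an adjusted p below 0.05 depended on the tool and filter. In the ZEB1 comparison edgeR called 0, and 6 without a filter, with 21 by DESeq2, 1 by limma-voom and 0 to 5 when 1 library was left out (5 without ZEB1 knockout 2). In the ZEB2 comparison edgeR called 0, and 348 without a filter or 2077 with only the 2 groups compared, with 2490 by DESeq2. For the difference of effects the counts were 0, 2 without a filter, 16 by DESeq2 and 0 to 3 with 1 library left out (3 without ZEB1 knockout 2). Between controls they were 3, 5 with DESeq2's size factors or the non-robust fit, 7 without a filter, 16 by DESeq2 and 1 to 5 with 1 library left out. For the mean effect they were 0, 5 without a filter, 411 by DESeq2 and 0 to 17 with 1 library left out (17 without ZEB1 knockout 2). The causes were not tested.

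Residual correlations of same-numbered libraries ran from -0.313 to 0.465. They were not set beside those of differently numbered libraries, so they cannot show whether the replicate number pairs the samples. With the number as a replicate block, edgeR called 1 gene between controls and no gene in the ZEB2 comparison, and the adjusted p of Myom3 there was 0.0858.

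Some small differences changed sign when 1 library was left out. In the ZEB1 comparison these were Ttn (-0.031 to 0.15), Neb (-0.021 to 0.12), Myom3 (-0.28 to 0.052) and Actn3 (-0.076 to 0.29). Actn2 did so in the ZEB2 comparison (-0.20 to 0.036) and in the mean effect (-0.0062 to 0.29). For the difference of effects they were Myom1 (-0.12 to 0.18), Actn3 (-0.32 to 0.034) and Mybpc2 (-0.0039 to 0.24), and between controls Mybpc1 (-0.068 to 0.074) and Mybpc2 (-0.16 to 0.061). Actn3 in the difference of effects was 0.0012 with upper quartile scaling, and Mybpc1 between controls was 0.0022 without a filter and 0.04 with the Y-linked covariate. Among the ratios, log2 differences changed sign for Actn3 to Actn2 in the ZEB1 line (-0.76 to 0.082) and over both lines (-0.21 to 0.21), Myom2 to Myom1 over both lines (-0.25 to 0.0015), and Ttn to Neb in the ZEB1 line (-0.073 to 0.12) and over both lines (-0.074 to 0.021). Mybpc2 to Mybpc1 stood at the smallest p that its test allows with each library left out, between 0.01 and 0.0167. The lowest count of any member in a library was 1324.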

Other observations

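Libraries in which Trim63, the ubiquitin ligase MuRF1, was low came from 3 of the 4 groups: 769.9 CPM in ZEB1 control 2, 925.1 in ZEB1 knockout 2 and 956.2 in ZEB2 control 3, with 2139 to 7378 CPM in the other 8. Fbxo32, the other main atrophy ligase, was low in the same 3 libraries, at 801.5, 1175 and 973.2 CPM. In these 3 libraries Actn2 stood at 892.6, 694.7 and 1044 CPM and Myom1 at 935.6, 1320 and 1033 CPM. In the other 8 libraries Actn2 ran from 960.5 to 1703 CPM and Myom1 from 1147 to 1606 CPM, so both genes overlapped. The other members are not listed here, and a relation to Trim63 was not tested. Summed Y-linked CPM was 0 in all 3, and also in ZEB1 knockout 1, where Trim63 was 4710 CPM.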
